A study of Mus musculus with 17 samples.

Results

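The genes that bring glucose into the cell, split it to pyruvate and send pyruvate to lactate or to the mitochondrion were followed across mouse embryonic stem cells sorted for the transcription factor FOXA2. The set holds 32 genes, listed by symbol for their place in the pathway and matched by Ensembl identifier to the 49671 genes of the count tables. All 32 passed the filter on low counts that left 17813 genes for testing, and the rule for membership uses no measured value, although the list was drawn up with earlier results of these libraries known. Their 32 transcripts took between 0.433% and 0.637% of the gene counts of a library (median 0.558%).

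The cells were of the R1 line, an established mouse embryonic stem cell line, and every group carried the FOXA2-Venus reporter, a fluorescent label for FOXA2. FOXA2 is expressed in the floor plate, a ventral signalling centre of the neural tube. All 6 groups had received retinoic acid (RA), a vitamin A derivative that patterns the nervous system, for 18 hours. In 4 of the groups a 6 hour period with no agent and then 8 hours with either the bone morphogenetic protein BMP4 or an agent named only LDN in the labels followed. Each treatment was split into FOXA2-positive and FOXA2-negative cells, giving 17 libraries, 3 in every group except LDN FOXA2-positive, which had 2 (numbers 2 and 3). The labels record nothing after the 18 hours for the RA groups, so in comparisons with RA the agent and the time of collection cannot be told apart. Whether the replicate libraries stem from separate cultures is not recorded, so a p-value here measures spread among libraries that may be technical.

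In glycolysis, glucose enters through facilitative transporters of the SLC2A (GLUT) family, is trapped by hexokinase and is split by a chain of enzymes into pyruvate, with a small net gain of ATP. Pyruvate is either reduced to lactate, which leaves through monocarboxylate transporters, or enters the mitochondrion, where pyruvate dehydrogenase turns it into acetyl-CoA. The pyruvate dehydrogenase kinases switch that last step off. Pluripotent stem cells are known for rapid glycolysis, and many of these steps are served by several isozymes, which cells exchange as they differentiate.

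Levels are given as CPM, the gene's count scaled to the library's total after TMM normalisation, and levels of different genes are compared only as CPM per kilobase of annotated exon. Libraries held from 8435845 to 10796136 gene counts (median 9785138). Foxa2 itself was measured at 0.311 ± 0.100 CPM in the FOXA2-negative and 23.0 ± 6.82 CPM in the FOXA2-positive cells of RA (SD, n = 3 each), at 0.775 ± 0.860 and 25.9 ± 2.80 CPM in BMP4, and at 1.85 ± 1.61 and 42.0 ± 3.17 CPM in LDN (n = 3 and 2), higher in the positive fraction each time. The RA libraries numbered 1 stood apart by their mitochondrial share of counts, 6.94% and 7.43%, the highest of all 17, and the RA calls of single members are given with and without that pair; other RA values are given with it. Of the cell type markers, 12 pluripotency genes summed to between 724 and 1285 CPM in FOXA2-negative and between 346 and 518 CPM in FOXA2-positive libraries, with Tdgf1 at 0 in RA and LDN FOXA2-positive cells and Nanog at 0 in the latter. The sum of 8 neural progenitor genes ran from 359.6 to 674 CPM in FOXA2-negative and from 441 to 1063 CPM in FOXA2-positive libraries. The sum of 10 surface ectoderm genes ran from 684 to 1014 and from 376 to 789 CPM. That of 8 endoderm genes ran from 6.50 to 35.6 and from 42.7 to 102 CPM (Cer1 at 0 throughout). That of 6 neuronal genes ran from 76.0 to 130.2 and from 45.3 to 68.6 CPM. Averaged over the treatments, 3 of these 6 were higher in FOXA2-positive cells without a call, while Tubb3, Stmn2 and Elavl3 were called lower. The 5 blood and endothelial genes summed to 2.62 to 23.5 and 0 to 3.46 CPM, with Ptprc, Hbb-bs and Cdh5 at 0 in every library. Only 1 of them, Pecam1, passed the filter on low counts, so this sum does not describe a cell type. Pecam1 was called lower in FOXA2-positive cells averaged over the treatments (log2 fold change -3.87). Each difference between the fractions described here went together with these marker differences, and their part in it was not tested. In bulk libraries fewer cells of a type and less RNA per cell cannot be told apart.

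Levels per kilobase of exon differed widely between members. Gapdh, the glyceraldehyde 3-phosphate dehydrogenase, had the highest mean (184 CPM per kilobase), followed by the enolase Eno1 (161), the aldolase Aldoa (152), the glucose transporter Slc2a1 (149) and the pyruvate kinase Pkm (144). The lowest were Pfkfb4 (0.522), Pfkfb3 (0.395), the neuronal enolase Eno2 (0.374) and Pfkfb2 (0.178). Those 4 genes had means under 5 CPM, 22 members had at least 20 CPM, and 6 lay between. The per-kilobase ranking of several abundant enzymes is uncertain, because their transcripts have near-identical processed copies elsewhere in the genome. It also depends on the exon length used, which joins all annotated exons of a gene and can exceed that of a single transcript. Of the 50-base windows of the annotated transcripts, 82.5% in Gapdh, 72.2% in Eno1, 68.0% in Pgk1, 41.5% in Pgam1, 30.5% in Pkm and 30.3% in Pdhb also occurred in transcripts of other genes. The share was 0% for Slc2a1, Slc2a3, Hk1, Hk2, Pfkp, Bpgm, Eno3 and Slc16a1.

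**Figure D1:**
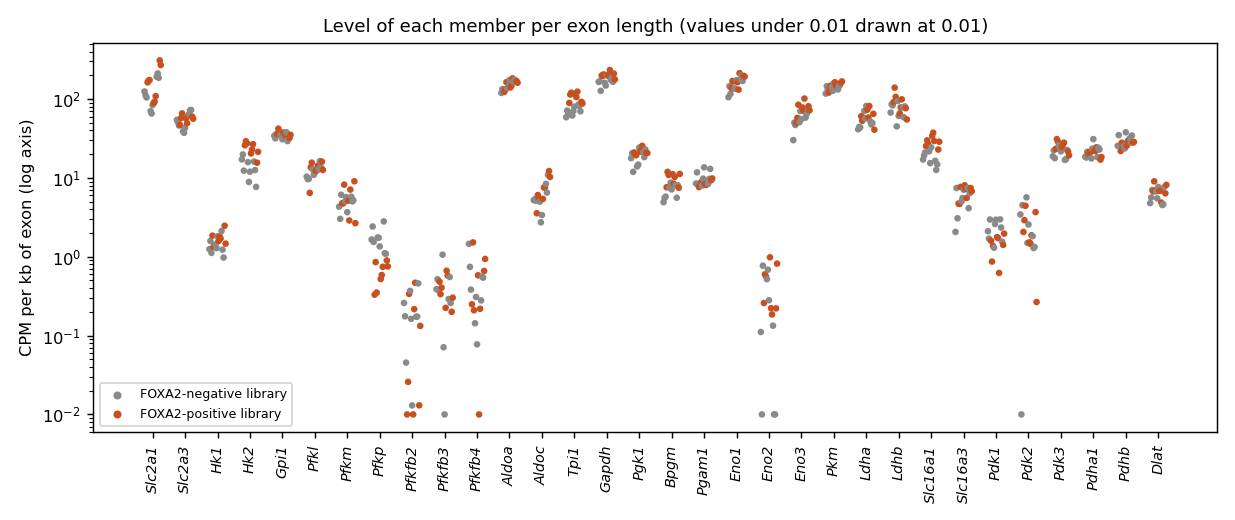
Level of each member in every library, as CPM per kilobase of exon on a log axis, with FOXA2-negative libraries in grey and FOXA2-positive libraries in orange and values under 0.01 drawn at 0.01. Gapdh, Eno1, Aldoa, Slc2a1 and Pkm have means between 144 and 184 CPM per kilobase, while Eno2 and the 3 Pfkfb genes have means under 1.

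Isozymes of 1 step were unequal in level, and the size of their shares depends on the joined exon lengths. Hk2 made up between 86.3% and 95.6% of the summed per-kilobase level of Hk1 and Hk2 in every library. Aldoa made up 93.3% to 98.2% of the aldolase level, Eno1 64.9% to 77.7% and the muscle enolase Eno3 22.2% to 35.0% of the enolase level, and Pdk3 70.4% to 92.9% of the level of the 3 dehydrogenase kinases. For the enolases the joined lengths were 5379 bases (Eno1) and 1739 bases (Eno3). Their longest coding transcripts held 1978 and 1515 windows of 50 bases, of which 72.2% and 0% also occurred in other genes. The Eno1 share may therefore be too low and the Eno3 share too high. Pfkl, the liver phosphofructokinase, led its family with 55.9% to 78.7%. Ldha and Ldhb, which encode the subunits of lactate dehydrogenase, shared their level more evenly, with Ldha at 27.5% to 61.1%. The Ldha percentage was 35.5 ± 2.20% (SD, n = 3) in RA FOXA2-negative and 52.0 ± 12.6% in BMP4 FOXA2-negative cells, where the libraries stood at 61.1%, 37.6% and 57.2%.

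Promoters are shown for the 4 members whose difference between the fractions, averaged over the treatments, kept its call under every processing alternative: Slc2a1, Hk2 and Slc16a1, higher in FOXA2-positive cells, and Pfkp, lower there. Each sequence runs 5′ to 3′ from 250 bases before to 50 bases after a start site, from RefSeq on GRCm38.p6. Capitals mark ACGTG or GCGTG on either strand, the core letters bound by hypoxia-inducible factors. CACGTG, the E-box bound by MYC and USF proteins, contains ACGTG on both strands.
Slc2a1: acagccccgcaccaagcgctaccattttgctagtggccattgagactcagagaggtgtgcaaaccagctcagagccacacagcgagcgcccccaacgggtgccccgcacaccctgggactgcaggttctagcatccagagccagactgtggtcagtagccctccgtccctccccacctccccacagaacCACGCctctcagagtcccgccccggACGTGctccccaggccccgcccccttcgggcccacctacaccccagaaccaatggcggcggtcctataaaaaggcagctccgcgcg
Hk2: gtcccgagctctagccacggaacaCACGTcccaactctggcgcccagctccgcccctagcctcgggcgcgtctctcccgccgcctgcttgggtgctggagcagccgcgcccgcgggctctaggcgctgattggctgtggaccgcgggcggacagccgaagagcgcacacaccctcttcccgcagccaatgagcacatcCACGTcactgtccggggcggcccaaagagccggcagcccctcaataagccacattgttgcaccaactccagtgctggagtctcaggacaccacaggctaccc
Slc16a1: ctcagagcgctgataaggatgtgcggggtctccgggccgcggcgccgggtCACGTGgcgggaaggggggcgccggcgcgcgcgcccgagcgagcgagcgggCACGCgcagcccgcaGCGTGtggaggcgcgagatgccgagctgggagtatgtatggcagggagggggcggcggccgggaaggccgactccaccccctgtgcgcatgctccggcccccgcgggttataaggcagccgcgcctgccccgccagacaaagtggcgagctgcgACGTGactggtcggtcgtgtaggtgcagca
Pfkp: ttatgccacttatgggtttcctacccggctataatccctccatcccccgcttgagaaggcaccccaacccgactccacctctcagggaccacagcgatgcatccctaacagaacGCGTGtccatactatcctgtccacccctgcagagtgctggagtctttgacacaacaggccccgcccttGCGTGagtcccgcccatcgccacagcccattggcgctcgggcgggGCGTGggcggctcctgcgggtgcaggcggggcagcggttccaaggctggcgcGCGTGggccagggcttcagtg
The windows lie at chr4:119108495-119108794 (plus strand), chr6:82774405-82774704 (minus), chr3:104638414-104638713 (plus) and chr13:6648722-6649021 (minus). Slc2a1 held ACGTG at -36 and GCGTG at -61 from the start site, with GGGCGG, the letters of an SP1 box, at -45 and -20. GGGCGG also lay at -201, -106 and -38 in Hk2, at -85 in Slc16a1 and at -76, -59, -30 and -19 in Pfkp. Hk2 held ACGTG at -226 and -52. Slc16a1 held ACGTG at -200, -199 and 20, of which the pair at -200 and -199 is 1 CACGTG read on both strands, and GCGTG at -149 and -134. Pfkp held GCGTG at -136, -68, -23 and 29 and no ACGTG. Over the 31 members with a promoter in the table, 36 of 47 windows held ACGTG or GCGTG, against 43.8% of the 32851 promoter windows of all genes. ACGTG was in 22 and GCGTG in 26 of the 47 windows, against 19.6% and 32.4%, and GGGCGG was in 26, against 35.7%. The 47 windows are not independent, because windows of Eno1, Aldoa and Pfkm overlap and count the same site again. Windows were not matched by base composition, and the difference from all genes was not tested. A match is a description of these letters and no measure of binding.

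Slc2a1 and Slc2a3 encode the transporters GLUT1 and GLUT3, and Slc2a1 was called between BMP4 and LDN in both fractions. Slc2a1 (ENSMUSG00000028645, chromosome 4, 119108711 to 119137983, plus strand, mm10) was lowest after BMP4 and highest after LDN in both fractions. In FOXA2-negative cells the BMP4 libraries held 247, 229.6 and 295 CPM, the RA libraries 437, 391 and 368 CPM, and the LDN libraries 672, 742 and 653 CPM. In FOXA2-positive cells the values were 313, 325 and 382 CPM after BMP4, 571, 603 and 611 CPM after RA, and 1085 and 947 CPM after LDN. Within a fraction no library of 1 treatment overlapped with those of another.

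**Figure D2:**
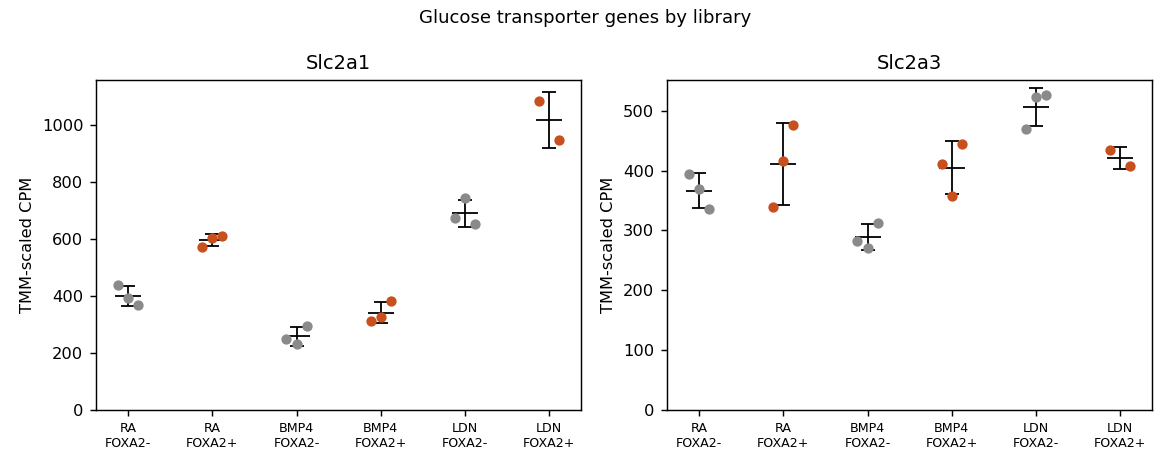
CPM of Slc2a1 (left) and Slc2a3 (right) in each of the 17 libraries, with horizontal lines for the group mean and bars for 1 SD. Slc2a1 runs from 229.6 CPM in a BMP4 FOXA2-negative library to 1085 CPM in an LDN FOXA2-positive library; Slc2a3 stays between 270.1 and 527 CPM.

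BMP4 and LDN, which were given for the same 8 hours after the same pretreatment, differed in Slc2a1 by -1.42 ± 0.13 on the log2 scale (SE; edgeR, adjusted p = 1.92e-07) in the FOXA2-negative fraction. That is a level 2.68-fold higher after LDN. In FOXA2-positive cells the log2 fold change was -1.58 ± 0.14 (adjusted p = 1.12e-07), 2.99-fold higher after LDN. Slc2a1 ranked 5 by p among 17813 genes in both comparisons, in which 0.196% and 0.32% of all genes were called in either direction. Over all alternatives run the fold stayed between -1.53 and -1.35 in FOXA2-negative and between -1.67 and -1.49 in FOXA2-positive cells, with every call kept. The sum of the 8 neural progenitor markers was 359.6 to 464 CPM after BMP4 and 608 to 674 CPM after LDN in FOXA2-negative cells, and 441 to 622 and 951 to 1063 CPM in FOXA2-positive cells. The sum of 9 immediate early and heat shock genes, which respond to handling, was 196 to 212 CPM after BMP4 and 233 to 295 CPM after LDN in FOXA2-negative cells, and 145 to 174 and 277 to 289 CPM in FOXA2-positive cells. The neuronal sum was likewise lower after BMP4, at 76.0 to 83.4 against 113 to 130.2 CPM and at 45.3 to 63.5 against 67.4 to 68.6 CPM. Its genes did not all move this way. In FOXA2-negative cells 1 of the 6 neuronal genes and in FOXA2-positive cells 3 of 6 had a fold change above 0, and 0 were called. The surface ectoderm sum was lower after BMP4 in FOXA2-negative cells (809 to 837 against 859 to 1014 CPM) and higher in FOXA2-positive cells (688 to 789 against 451 to 518 CPM). In FOXA2-negative cells that sum hides opposite directions. There Gata3 and Tfap2a were called higher after BMP4 and 0 genes lower, while 3 of the 10 genes had a fold change above 0. In FOXA2-positive cells Tfap2a, Gata3, Tfap2c and Krt18 were called higher and 0 lower. These sums moved with Slc2a1 or against it without overlap of libraries, and their part in the result was not tested.

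Against RA the values lay between these, and these comparisons share libraries with those between BMP4 and LDN. LDN exceeded RA by 0.79 ± 0.13 (adjusted p = 0.00767) in FOXA2-negative and by 0.77 ± 0.14 (adjusted p = 0.013) in FOXA2-positive cells, where 0.0393% and 0.208% of all genes were called. BMP4 was below RA by a log2 fold change of -0.81 ± 0.13 (adjusted p = 0.00394) in FOXA2-positive cells, where 0.0786% of genes were called. In FOXA2-negative cells it was -0.63 ± 0.13 (adjusted p = 0.0533, above the threshold of 0.05; 0.0786% of genes called). Without both RA libraries numbered 1 the called values were 0.86 (adjusted p = 0.00513), 0.75 (0.0199) and -0.83 (0.00441). The call of LDN against RA in FOXA2-negative cells was lost without RA FOXA2-negative library 2 (adjusted p = 0.069) or 3 (0.0827) or LDN FOXA2-negative library 2 (0.0658). In FOXA2-positive cells it was lost without RA library 1 (0.0597) or 3 (0.0548) or LDN library 2 (0.178) or 3 (0.0721), and the BMP4 call without BMP4 FOXA2-positive library 1 (0.0672).

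Between the fractions Slc2a1 was higher in FOXA2-positive cells in each treatment, with no overlap of libraries. The group means were 595 ± 21.0 against 399 ± 35.4 CPM in RA (SD, n = 3 each), 340.1 ± 37.0 against 257 ± 33.9 CPM in BMP4 (n = 3 each) and 1016 ± 97.6 (n = 2) against 689 ± 46.8 CPM (n = 3) in LDN. The log2 fold changes were 0.58 ± 0.13 (SE; adjusted p = 0.0196), 0.40 ± 0.13 (0.179) and 0.56 ± 0.14 (0.0535), and averaged over the treatments 0.51 ± 0.08 (adjusted p = 6.95e-05), a 1.43-fold difference. The fraction difference in BMP4 and in LDN differed by -0.16 (95% interval -0.55 to 0.24), and in BMP4 and in RA by -0.17 (-0.55 to 0.20), neither past the threshold. The RA call held without both RA libraries numbered 1 (0.68, adjusted p = 0.0254) and was lost without FOXA2-negative library 2 (0.096) or 3 (0.107) or FOXA2-positive library 2 (0.0871) or 3 (0.0928). In ascending order the groups were BMP4 FOXA2-negative, BMP4 FOXA2-positive, RA FOXA2-negative, RA FOXA2-positive, LDN FOXA2-negative and LDN FOXA2-positive. BMP4 FOXA2-positive and RA FOXA2-negative libraries overlapped, whereas the libraries of each other neighbouring pair did not. The highest group mean was 3.95 times the lowest, the widest span among the 22 members with at least 20 CPM, against a spread within groups of 8.63%.

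Slc2a3 (ENSMUSG00000003153, chromosome 6, 122727809 to 122801640, minus strand) had the same order of treatment means in FOXA2-negative cells. There the BMP4 libraries held 283, 270.1 and 312 CPM, the RA libraries 394, 369.7 and 335 CPM and the LDN libraries 469, 523 and 527 CPM. BMP4 differed from LDN by -0.81 ± 0.14 (SE; adjusted p = 0.00327), a call that every alternative kept. In FOXA2-positive cells the levels were 411, 358 and 445 CPM after BMP4, 339, 416 and 476 CPM after RA and 434 and 408 CPM after LDN, and the groups overlapped (BMP4 against LDN -0.06 ± 0.15, 95% interval -0.37 to 0.26). Accordingly the log2 fold change between the fractions was 0.49 ± 0.14 in BMP4 (adjusted p = 0.0977) and -0.27 ± 0.15 in LDN (0.513), both without overlap of libraries. Slc2a3 lies on chromosome 6, and with each chromosome scaled by its own TMM factor these became 0.19 (adjusted p = 0.69) and -0.52 (0.138). The difference between these, 0.76 ± 0.21 (SE), had an adjusted p of 0.519 over all genes and was not called. As a share of the summed per-kilobase level of both transporters, Slc2a1 was 64.7 ± 1.24% (SD, n = 3) in BMP4 FOXA2-negative and 63.4 ± 2.10% (n = 3) in BMP4 FOXA2-positive cells. It was 69.2 ± 0.521% and 75.1 ± 2.54% in RA and 73.8 ± 1.58% (n = 3) and 83.3 ± 0.745% (n = 2) in LDN, so that the share was highest in LDN FOXA2-positive cells. The joined exon lengths were 3506 bases for Slc2a1 and 7245 for Slc2a3, whose longest coding transcripts held 3211 and 3910 windows of 50 bases. With transcript lengths the Slc2a1 shares would be lower, while the same lengths served all groups.

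Among the other 30 members no treatment comparison called a difference in either fraction. In BMP4 against LDN the median log2 fold change of the 32 members was -0.03 in FOXA2-negative and -0.04 in FOXA2-positive cells, beside 0 and 0.01 for all genes tested. The aldolase isozyme Aldoc came nearest in FOXA2-negative cells, with 16.3, 8.92 and 11 CPM after BMP4 and 27.5, 21.3 and 35.7 CPM after LDN (-1.22 ± 0.32, adjusted p = 0.157). These libraries did not overlap. Ldha went the other way there, with 234, 188 and 271 CPM after BMP4 against 171, 158 and 165 CPM after LDN (0.49 ± 0.17, adjusted p = 0.499). Libraries of BMP4 and LDN did not overlap for 2 members that were higher and 4 that were lower after BMP4 in FOXA2-negative cells, where 5.32% and 5.93% of all genes did the same. In FOXA2-positive cells the counts were 5 and 5, beside 11.6% and 10.8% of all genes.

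**Figure D3:**
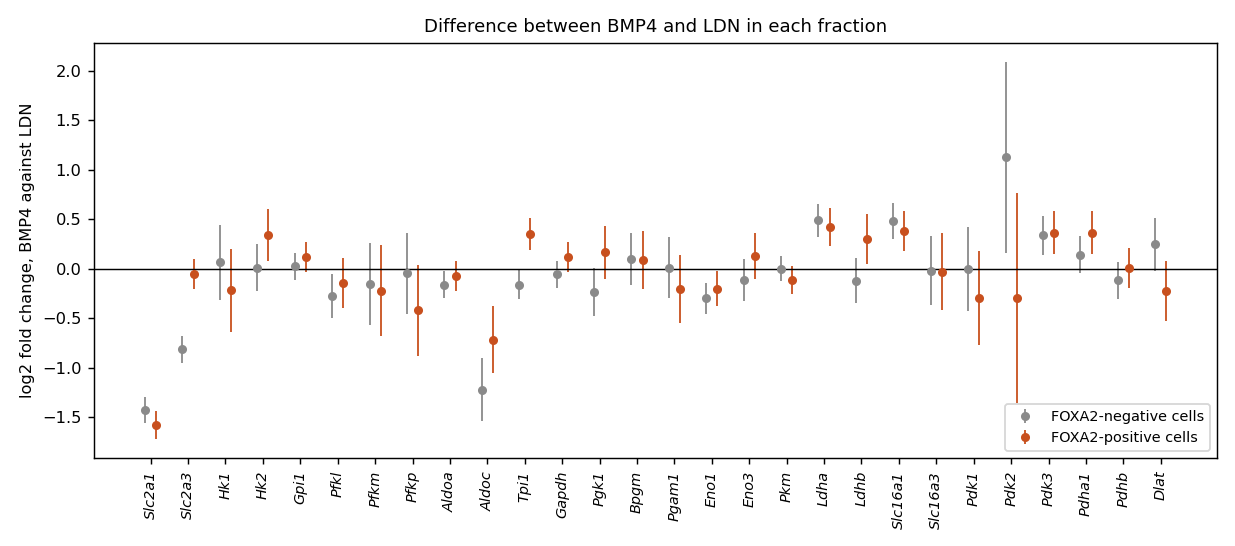
Log2 fold change of BMP4 against LDN for the 28 members with at least 5 CPM, in FOXA2-negative (grey) and FOXA2-positive (orange) cells, with bars of 1 SE. Slc2a1 lies at -1.42 and -1.58, and Slc2a3 at -0.81 and -0.06; most other members lie near 0.

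Between the fractions members were called in each treatment and in the average over treatments, which has no counterpart among the treatment comparisons. In RA the positive fraction had 2 members higher (Slc2a1 and Tpi1) and 1 lower (Pfkp), with 1.19% of all genes called, 0.371% higher and 0.82% lower. In BMP4 Tpi1 alone was called, higher, with 0.921% of genes called (0.32% higher, 0.601% lower), and in LDN Slc16a1 alone, higher, with 0.994% called (0.286% higher, 0.707% lower). Averaged over the 3 treatments 7 members were higher and 1 lower, with 7.62% of genes called (3.12% higher, 4.5% lower). The fold change was above 0 in 24 of 32 members in RA, 24 in BMP4 and 21 in LDN, where 49.4%, 48.7% and 45.8% of all genes were above 0. The members' median was 0.26, 0.18 and 0.13, and all genes' 0, 0 and -0.03. Libraries did not overlap for 9 members that were higher and 2 that were lower in RA (7.25% and 7.99% of all genes), 7 and 1 in BMP4 (7.51% and 7.31%) and 7 and 3 in LDN (13.1% and 14.7%). These counts and those above 0 include the members on chromosome 6, which are given apart below. Summed over the 32 members, FOXA2-positive cells held 5657 ± 496 CPM against 4539 ± 320.1 CPM in RA (SD, n = 3 each), 5701 ± 527 against 4808 ± 521 CPM in BMP4 (n = 3 each) and 6302 ± 293 (n = 2) against 5681 ± 130.4 CPM in LDN (n = 3). None of the interaction contrasts called a member; 0.00561%, 0.00561% and 0.0337% of all genes were called in them, and 1, 2 and 2 members had an unadjusted p under 0.05.

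Chromosome 6 carries 7 members, namely Slc2a3, Hk2, Tpi1, Gapdh, Bpgm, Eno2 and Ldhb, and chromosome 6 as a whole was higher in FOXA2-positive libraries. The median log2 fold change of its 335 genes at or above 20 CPM was 0.31 in RA, 0.34 in BMP4, 0.24 in LDN and 0.29 averaged. Of its 933 genes tested, 13.1% were called higher in the averaged comparison, and 4 of the 7 members were. Members of this chromosome are therefore also given after scaling each chromosome by its own TMM factor. Chromosome 8, which carries 0 members, was lower in FOXA2-positive libraries. The median of its 407 genes at or above 20 CPM was -0.31 in RA, -0.30 in BMP4, -0.27 in LDN and -0.29 averaged. The cause of either shift was not tested. In the averaged comparison the 25 members outside chromosome 6 had 3 calls higher and 1 lower and a median of 0.17. In RA 7 of 7 members on chromosome 6 and 17 of 25 elsewhere had a fold change above 0. The counts were 6 and 18 in BMP4 and 5 and 16 in LDN. At or above 20 CPM, 84.2%, 86.9% and 75.2% of chromosome 6 genes were above 0. Of the members higher without overlap, Hk2, Tpi1, Gapdh, Bpgm and Ldhb in RA lie on chromosome 6. So do Slc2a3, Hk2 and Tpi1 in BMP4 and Tpi1 and Eno2 in LDN, and Slc2a3, lower in LDN. The sums over all members given above include chromosome 6. Without it FOXA2-positive cells held 3742 ± 339 CPM against 3116 ± 237 CPM in RA (SD, n = 3 each). In BMP4 the sums were 3806 ± 340 against 3415 ± 383 CPM (n = 3 each). In LDN they were 4581 ± 184 (n = 2) against 4015 ± 85.8 CPM (n = 3). With chromosome 6 left out, the libraries of the fractions overlapped in RA and BMP4 and not in LDN. With it included they overlapped in BMP4 alone. Abundant genes weigh most in such sums. Slc2a1 alone held 595 against 399 CPM in RA, 340.1 against 257 CPM in BMP4 and 1016 against 689 CPM in LDN.

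**Figure D4:**
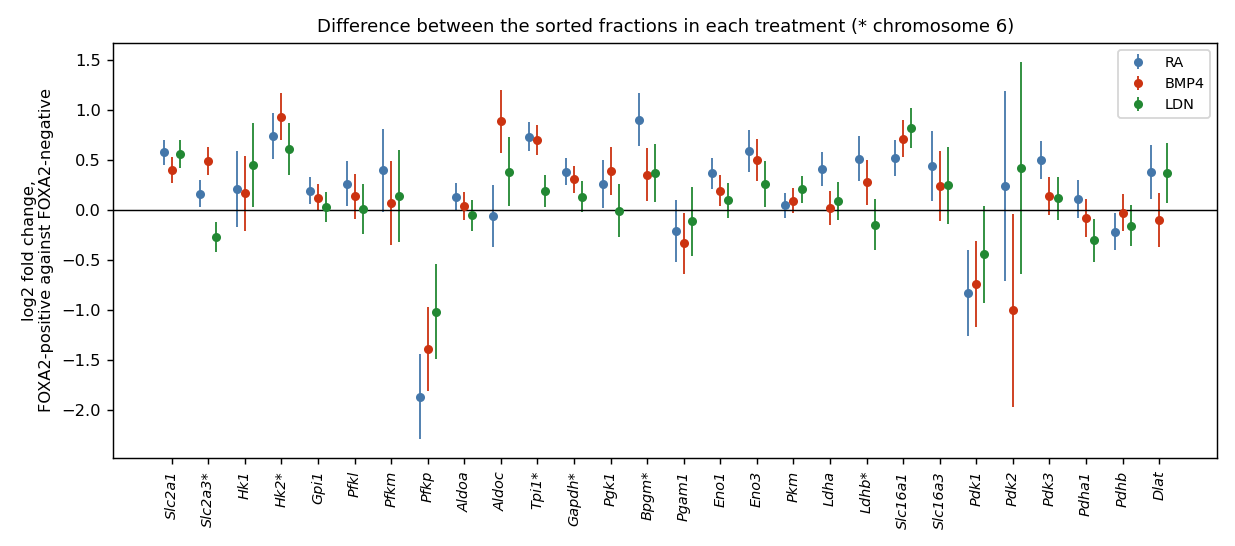
Fraction difference (FOXA2-positive over FOXA2-negative, log2) for the 28 members with at least 5 CPM, in RA (blue), BMP4 (red) and LDN (green), with bars of 1 SE and members on chromosome 6 marked by an asterisk. Slc2a1, Hk2 and Slc16a1 lie above 0 and Pfkp below 0 in all 3 treatments.

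Hexokinase traps glucose as glucose 6-phosphate, and Hk2, its inducible isozyme, was higher in FOXA2-positive cells. Hk2 (ENSMUSG00000000628, chromosome 6, 82725025 to 82774454, minus strand) held 102, 118 and 73.8 CPM in RA FOXA2-negative and 155, 174 and 164 CPM in RA FOXA2-positive libraries. In BMP4 the values were 94.5, 53.0 and 71.5 against 122, 136 and 159.7 CPM. In LDN they were 96.2, 75.1 and 45.9 against 93.1 and 128 CPM, where the fractions overlapped. No single treatment passed the threshold (0.74 ± 0.23, adjusted p = 0.155; 0.93 ± 0.24, 0.0548; 0.61 ± 0.26, 0.368), and the average did, at 0.76 ± 0.14 (adjusted p = 0.000788), a 1.69-fold difference. Scaled within chromosome 6 the average was 0.48 ± 0.14 (adjusted p = 0.0349), still past the threshold, and the single treatments 0.44, 0.64 and 0.37. Hk1, the widely expressed isozyme, lay between 8.33 and 21.1 CPM and averaged 0.28 ± 0.23 (adjusted p = 0.568), and Gpi1, the isomerase of the next step, between 189 and 272 CPM with 0.12 ± 0.08 (0.468).

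Phosphofructokinase commits the sugar to glycolysis, and its platelet isozyme Pfkp was the member lowered in FOXA2-positive cells. Pfkp (ENSMUSG00000021196, chromosome 13, 6579768 to 6648777, minus strand) held 22.2, 32.4 and 20.6 CPM in RA FOXA2-negative and 4.43, 11.4 and 4.71 CPM in RA FOXA2-positive libraries. In BMP4 it held 23.5, 23.3 and 18.1 against 6.99, 7.86 and 9.99 CPM, and in LDN 37.6, 14.9 and 14.6 against 12 and 10.1 CPM. The fractions did not overlap in any treatment. The log2 fold change was -1.86 ± 0.42 (SE; adjusted p = 0.0221) in RA, -1.39 ± 0.42 (0.138) in BMP4, -1.01 ± 0.47 (0.422) in LDN and -1.42 ± 0.25 averaged (adjusted p = 0.000615), a level 2.68-fold higher in FOXA2-negative cells. Without both RA libraries numbered 1 the RA value was -1.71 (0.151) and the average -1.37 (0.0019). The RA call was also lost without RA FOXA2-negative library 2 (0.137), FOXA2-positive library 1 (0.13) or FOXA2-positive library 3 (0.145). Pfkp is overlapped on the other strand by Pitrm1 (mean 43.6 CPM), and the strand setting of the counting is not given in the sources used here.

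The more abundant Pfkl ranged from 43.1 to 109 CPM and averaged 0.14 ± 0.13 (adjusted p = 0.661), and the muscle isozyme Pfkm from 8.91 to 30.3 CPM with 0.20 ± 0.25 (0.759). The 3 phosphofructokinase genes summed to 106, 107 and 106 CPM in the RA FOXA2-negative libraries and to 63.5, 118 and 136 CPM in the RA FOXA2-positive libraries, where the lowest value is that of library 1, set apart above. The sums were 117 ± 8.96 against 112 ± 15.1 CPM in BMP4 (SD, n = 3 each) and 135 ± 10.7 (n = 3) against 127 ± 32.9 CPM (n = 2) in LDN, FOXA2-negative first. The joined exon lengths were 13401 bases for Pfkp and 6675 for Pfkl, whose longest coding transcripts held 4096 and 3681 windows of 50 bases. The Pfkp shares that follow would be higher with transcript lengths. Pfkp made up 11.7 ± 3.81% of the summed per-kilobase level of the 3 genes in RA FOXA2-negative and 2.92 ± 1.5% in RA FOXA2-positive cells. In BMP4 the percentages were 8.83 ± 0.688 and 3.32 ± 0.391 (n = 3 each). In LDN they were 13.1, 4.94 and 5.47 in the FOXA2-negative and 3.44 and 4.70 in the FOXA2-positive libraries, with FOXA2-negative library 1 well above the rest. The 3 Pfkfb genes, which set the level of fructose 2,6-bisphosphate, the main activator of phosphofructokinase, summed to 12 CPM or less in every library and showed no called difference.

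Of the 10 members from aldolase to enolase, Tpi1, Gapdh, Bpgm and Eno3 were higher in FOXA2-positive cells in the averaged comparison. Tpi1, the triose phosphate isomerase (ENSMUSG00000023456, chromosome 6, 124810586 to 124814296, minus strand), held 162, 197 and 177 CPM in RA FOXA2-negative and 246, 314 and 332 CPM in RA FOXA2-positive libraries. In BMP4 it held 170.1, 194 and 220.2 against 315, 292 and 342 CPM. In LDN the fractions lay closer, at 234, 225 and 193 against 254 and 243 CPM, again without overlap. The log2 fold change was 0.74 ± 0.15 (SE; adjusted p = 0.00833) in RA, 0.70 ± 0.15 (0.0158) in BMP4, 0.19 ± 0.16 (0.686) in LDN and 0.54 ± 0.09 (0.000173) averaged. Scaled within chromosome 6 these became 0.44 (adjusted p = 0.216) in RA, 0.41 (0.299) in BMP4 and 0.26 (0.0744) averaged, so that no call of Tpi1 was kept. The RA call held without both RA libraries numbered 1 (0.79, adjusted p = 0.0126) and was lost without RA FOXA2-positive library 3 (0.066). The BMP4 call was lost without BMP4 FOXA2-negative library 1 (0.0826) or 2 (0.0793) or BMP4 FOXA2-positive library 1 (0.062) or 3 (0.0796).

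Gapdh (ENSMUSG00000057666, chromosome 6, 125161715 to 125166467, minus strand), often used as a reference gene, held 683, 695 and 526 CPM in RA FOXA2-negative and 823, 812 and 849 CPM in RA FOXA2-positive libraries. In BMP4 it held 665, 613 and 827 against 834, 808 and 966 CPM and in LDN 721, 784 and 685 against 870.1 and 734 CPM, both with overlap. The averaged log2 fold change was 0.28 ± 0.08 (adjusted p = 0.0352), near the median of chromosome 6, and within that chromosome's scaling it was 0.00 ± 0.08 with the sign turned (adjusted p = 1). Its call was lost, with adjusted p from 0.0587 to 0.152, when any 1 of 9 libraries was left out (RA FOXA2-negative 3, RA FOXA2-positive 2 and 3, BMP4 FOXA2-negative 1 and 2, BMP4 FOXA2-positive 3, LDN FOXA2-negative 1 and 3, LDN FOXA2-positive 2), and the near-identical copies named above make its level uncertain.

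Bpgm, which makes 2,3-bisphosphoglycerate (ENSMUSG00000038871, chromosome 6, 34476207 to 34505613, plus strand), held 17.7, 19.98 and 20.8 CPM in RA FOXA2-negative and 27.3, 42.8 and 39.1 CPM in RA FOXA2-positive libraries. The other values were 27.0, 31.2 and 25.7 against 40.0, 30.4 and 36.9 CPM in BMP4 and 29.0, 20.1 and 28.9 against 26.9 and 40.3 CPM in LDN, and in both the fractions overlapped. It averaged 0.54 ± 0.16 (adjusted p = 0.0327), and 0.26 ± 0.16 (0.407) within chromosome 6; the call was also lost, with adjusted p from 0.0521 to 0.183, without any 1 of 7 libraries (RA FOXA2-negative 1, RA FOXA2-positive 2 and 3, BMP4 FOXA2-positive 1 and 3, LDN FOXA2-negative 2, LDN FOXA2-positive 3). Eno3 (ENSMUSG00000060600, chromosome 11, 70657202 to 70662513, plus strand) lies elsewhere. It held 52.5, 87.5 and 81.6 against 87.1, 100.4 and 147 CPM in RA, 88.3, 122 and 96.9 against 136, 124 and 177 CPM in BMP4, and 101, 112 and 120.2 against 141 and 125 CPM in LDN, each time FOXA2-negative first. The RA fractions overlapped and the others did not. The average was 0.45 ± 0.13 (adjusted p = 0.0241), 0.43 (0.0315) with scaling by chromosome, and was lost without 4 single libraries (RA FOXA2-positive 3, 0.0709; BMP4 FOXA2-positive 3, 0.0629; LDN FOXA2-negative 1, 0.0527; LDN FOXA2-positive 2, 0.0751). The other 6 genes of these steps, Aldoa, Aldoc, Pgk1, Pgam1, Eno1 and Eno2, had no call, with averages from -0.22 (Pgam1) to 1.36 (Eno2, under 5 CPM).

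**Figure D5:**
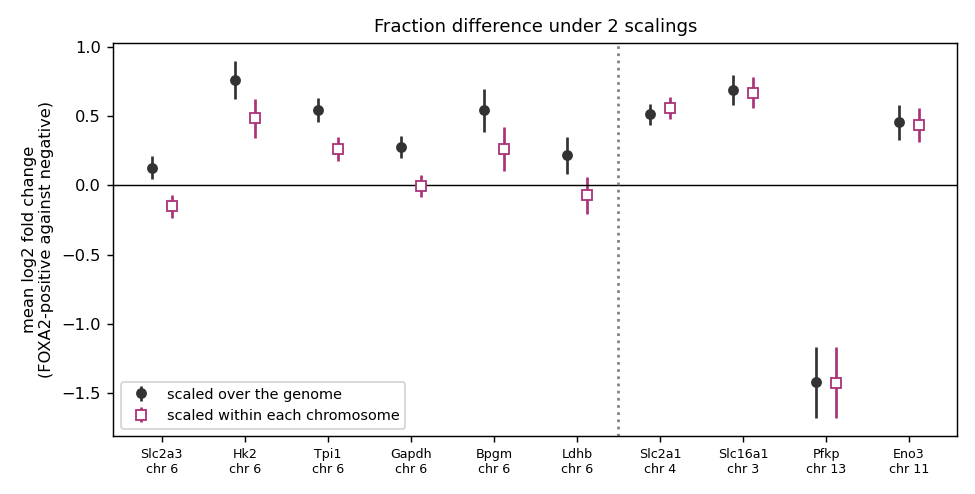
Fraction difference (FOXA2-positive over FOXA2-negative, log2) averaged over the 3 treatments, scaled over the genome (filled circles) or within each chromosome (open squares), with bars of 1 SE, for the 6 members on chromosome 6 with at least 5 CPM and for 4 members elsewhere. Gapdh moves from 0.28 to near 0 and Tpi1 from 0.54 to 0.26, while Slc2a1, Slc16a1, Pfkp and Eno3 change little.

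At the end of the pathway the lactate and pyruvate transporter Slc16a1, which encodes MCT1, was higher in FOXA2-positive cells. Slc16a1 (ENSMUSG00000032902, chromosome 3, 104638668 to 104658462, plus strand) held 75.6, 85.3 and 92.9 CPM in RA FOXA2-negative and 112, 133 and 119.9 CPM in RA FOXA2-positive libraries. In BMP4 it held 96.2, 68.1 and 108 against 151, 166 and 130.1 CPM, and in LDN 72.8, 55.9 and 65.6 against 101 and 127 CPM. No fractions overlapped. The log2 fold change was 0.52 ± 0.18 (SE; adjusted p = 0.231) in RA, 0.72 ± 0.18 (0.0591) in BMP4, 0.82 ± 0.20 (0.0442) in LDN and 0.69 ± 0.11 averaged (adjusted p = 0.00014), a 1.61-fold difference. The LDN call was lost without any 1 of the 5 LDN libraries, with adjusted p from 0.0712 to 0.503, while the average kept its call in every alternative. An intronic transcript on the same strand, Gm43581 (mean 18.8 CPM), overlaps the gene. Slc16a3, the MCT4 transporter, ranged from 11 to 42.9 CPM and averaged 0.31 ± 0.21 (adjusted p = 0.453).

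Pkm, Ldha and Ldhb had no call between the fractions. Pkm, the pyruvate kinase, stayed between 586 and 837 CPM in all libraries and averaged 0.12 ± 0.07 (95% interval -0.04 to 0.27). Ldha held 137, 147 and 144 CPM in RA FOXA2-negative and 200.3, 176 and 192 CPM in RA FOXA2-positive libraries, without overlap (0.41 ± 0.17, adjusted p = 0.361), but 0.02 ± 0.17 in BMP4 and 0.09 ± 0.19 in LDN. Ldhb, on chromosome 6, averaged 0.22 ± 0.14 (adjusted p = 0.405), and -0.07 when scaled within that chromosome; for Slc2a3 the same change was from 0.13 to -0.15, neither called.

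The pyruvate dehydrogenase branch showed no called difference in any of the 13 comparisons. Its catalytic subunits Pdha1 and Pdhb and the acetyltransferase Dlat averaged -0.09 ± 0.11, -0.13 ± 0.11 and 0.22 ± 0.16 between the fractions. Pdk1, a kinase that inhibits the complex, held 16.4, 13.2 and 23.1 CPM in RA FOXA2-negative and 12.4, 6.76 and 10.6 CPM in RA FOXA2-positive libraries. Its fold change was below 0 in each treatment and averaged -0.67 ± 0.26 (adjusted p = 0.128). Pdk3, the most abundant kinase of the branch, averaged 0.25 ± 0.12 (0.211), and Pdk2, at 0 to 17.9 CPM, -0.11 ± 0.57. Summed over the 6 genes, the branch held between 283 ± 2.13 CPM (SD, n = 2, LDN FOXA2-positive) and 324 ± 54.4 CPM (n = 3, BMP4 FOXA2-negative), a smaller span than the 545 ± 55.6 to 1437 ± 116 CPM of glucose uptake.

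Other genes of glucose and pyruvate use were read from lists drawn up with earlier results of these libraries known. Of 36 further transporters, enzymes and partners of the pathway, 31 were tested. The counts called in the averaged comparison, 4 of these 31, 3 of 17 low-oxygen genes and 2 of 14 regulators, stand beside 7.62% of all genes (3.12% higher, 4.5% lower). Emb, which encodes embigin, an ancillary protein that carries monocarboxylate transporters such as MCT1 to the membrane, was called higher in FOXA2-positive cells in each treatment. It held 184, 202 and 155 against 442, 426 and 322 CPM in RA, 348, 227 and 397 against 657, 529 and 629 CPM in BMP4, and 110.5, 114 and 104 against 241 and 255 CPM in LDN, with no overlap. The log2 fold changes were 1.14 ± 0.17 (adjusted p = 0.000453), 0.90 ± 0.17 (0.00615) and 1.2 ± 0.19 (0.00109). Emb also differed between BMP4 and LDN, with 1.56 ± 0.17 (adjusted p = 5.72e-06) in FOXA2-negative and 1.29 ± 0.20 (0.000802) in FOXA2-positive cells, opposite in sign to Slc2a1. Bsg, basigin, the partner that also serves MCT1, averaged 0.11 ± 0.08 between the fractions (adjusted p = 0.534).

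Elsewhere on that list the averaged fraction comparison called Hkdc1 higher and Ldhc and Mpc2 lower. Hkdc1, a hexokinase-like gene, and Ldhc, the testis lactate dehydrogenase subunit, stayed under 9 CPM in every library, and Ldhc had 0 counts in both LDN FOXA2-positive libraries. Mpc2, a subunit of the mitochondrial pyruvate carrier, averaged -0.40 ± 0.11 (adjusted p = 0.021). The median of the 31 genes was -0.16, below 0 unlike that of the members. No gene of the pentose phosphate pathway (7 tested), of the serine branch (6) or of the citric acid cycle (16) was called in any of the 13 comparisons; in the averaged comparison their medians were 0.07, -0.11 and -0.01.

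Of 17 tested genes outside glycolysis that respond to low oxygen, the averaged comparison called Vegfa higher (1.51 ± 0.36, adjusted p = 0.00919) and both Ddit4 (-0.70 ± 0.13, 0.00114) and Ndrg1 (-2.99 ± 0.62, 0.00244) lower, with a median of -0.22, and no gene was called in the other comparisons. Among 14 regulators of the pathway, Mycn, a MYC family factor, was called higher in the averaged comparison (0.75 ± 0.18, adjusted p = 0.00912) and the pluripotency receptor Esrrb lower (-2.42 ± 0.65, 0.0195). Mycn stood at 13.9, 22.1 and 12.1 CPM in RA FOXA2-negative and 33.4, 33.5 and 33.0 CPM in RA FOXA2-positive libraries. In BMP4 the fractions overlapped, at 20.4, 12.1 and 17.2 against 16.2, 20.6 and 23.7 CPM, and in LDN they did not, at 17.8, 14.1 and 15.6 against 32.2 and 27.9 CPM. No single treatment passed the threshold for Mycn. Hif1a averaged 0.06 ± 0.13 (adjusted p = 0.9) and Myc -0.29 ± 0.36 (0.765); Mycn, Hif1a and Myc were not called between BMP4 and LDN.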

How the data were processed

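RNA of sorted FOXA2-positive and FOXA2-negative R1 cells was made into libraries by SMART-Seq v2, per the labels' protocols. The authors deposited raw counts per Ensembl gene for each of 17 libraries, with no normalisation. Per the submitters' processing notes the build was mm10 and the tools included HTSeq 0.11.2, DESeq2 1.26.0, cutadapt 1.18 and UMI-tools 1.0.0. The aligner, the annotation release and the strand setting were not given in the sources used here. Summary lines that name no gene took 49.3% to 54.4% of tallied reads and were left out. Symbols, exon lengths and positions came from GENCODE M21, which gave 49412 identifiers a symbol, and promoters from RefSeq.

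Groups were taken from the titles. One edgeR 4.0.16 quasi-likelihood model (R 4.3.3, TMM scaling, filterByExpr with minimum count 10 and total 15, robust, 11 residual degrees of freedom) was fitted to 6 groups and tested on simulated data; from it came 13 contrasts, adjusted by Benjamini-Hochberg over 17813 genes at 0.05. Every adjusted p is from this test unless another tool is named. The SE of a log2 fold change was taken as its size over the root of F; intervals are 95%. Depth was similar in all libraries, so precision rests mainly on the 2 or 3 libraries per group. The alternatives were DESeq2 1.42.0, RLE scaling, TMM within each chromosome, no filter, at least 5 CPM in 2 libraries, only the compared groups, a replicate block, RA without its libraries numbered 1, and each library left out. In RA, same-numbered fractions correlated at 0.587, 0.238 and 0.277 (deviations from group means, 6669 genes). The group means include libraries 1, which stood apart, so their deviation alone can make libraries 2 and 3 correlate. Pairing of numbers 2 and 3 is thus not shown, and the labels do not state any pairing. With the block every RA call between the fractions was kept.

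Members and lists were chosen with earlier results of these data known. Called members are described library by library, the others by range and counts; from other lists up to 6 called genes per comparison are named, and Foxa2, Hif1a and Myc family genes as context. Bsg was named outside this rule, with its values known.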

Additional observations from a re-analysis of the deposited data

How the results depend on the processing

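The count of members called moved by more than 1.5 times as follows. Between the fractions in BMP4 (1 called) DESeq2 called 5, scaling within each chromosome 0, no filter 3, the stricter filter 3 and the replicate block 4. In LDN (1 called) DESeq2, RLE scaling, the stricter filter and the block each called 2. In RA (3 called) a model of only the compared groups called 0, and averaged over treatments (8 called) scaling within each chromosome called 5. BMP4 against RA in FOXA2-negative cells (0 called) gave 2 with DESeq2, 2 without the filter and 1 with the stricter filter. LDN against RA gave 0 in both fractions with only the compared groups, and 2 in FOXA2-positive cells without the filter (1 called in each). The causes were not tested. Models of only the compared groups held fewer libraries and also set the filter, the scaling and the estimate of spread anew. Chromosome scaling removes a shift shared by a chromosome. Leaving out 1 library at a time gave 0 to 3 calls in RA, 0 to 2 in BMP4, 0 in LDN, 5 to 8 averaged, 0 to 1 for BMP4 against RA and for LDN against RA in either fraction, 2 for BMP4 against LDN in FOXA2-negative and 1 in FOXA2-positive cells. Where this left 1 LDN FOXA2-positive library, it was assumed to vary like the other groups. The averaged Gapdh difference reversed to -0.00439 with chromosome scaling. Same-numbered fractions correlated weakly in BMP4 (0.0508, 0.0793 and 0.0769) and in LDN (0.0566 and 0.0615), so the block counts of BMP4 and LDN above rest on a shared number only. Between treatments the correlations ran from -0.163 to 0.283, the highest for the FOXA2-negative libraries numbered 1 of BMP4 and RA. The block changed no other call. Of 344 single-gene alternatives 284 kept direction and call, 59 lost the call and 1 reversed. The members with means under 5 CPM (Pfkfb2, Pfkfb3, Pfkfb4, Eno2) gave intervals several log2 units wide. Their spread within groups was 72.2% (Pfkfb3) to 97.2% (Pfkfb2) of the mean, so smaller differences there could be missed.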
